A study of Mus musculus with 2 samples.

Results

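Open chromatin at divergent promoters was described in mouse frontal cortex. A divergent promoter is a stretch of DNA between the start sites of 2 protein-coding genes that lie back to back on opposite strands and are transcribed away from each other. Its peaks were the autosomal DNase I peaks found in both libraries (an overlap of at least 1 bp) whose midpoint lay within 1000 bp of the transcription start sites (TSSs) of both genes, with the TSSs at most 1000 bp apart in the GENCODE vM21 annotation. This rule reads positions and no measured strength. It found 1646 peaks, which are 4.03% of the 40822 shared autosomal peaks and 8.86% of the 18573 shared peaks within 1000 bp of any protein-coding TSS. The other 16927 promoter peaks, called single-direction promoters here, served as the comparison.

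The tissue was frontal cortex of male B6CASTF1/J mice, the F1 cross of the C57BL/6J and CAST/EiJ strains, at 10 days of age. No treatment is named in the labels, and there was 1 group with 2 biological replicates. A note in the labels mentions 3 males, and both libraries carry the same donor entry, so whether the replicates came from separate animals is not known and their spread may be technical. The assay was DNase-seq, in which the enzyme DNase I cuts accessible DNA in isolated nuclei. In bulk tissue, fewer cells with an open promoter and a less open promoter in each cell cannot be told apart.

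The deposited lists held 48719 autosomal peaks in replicate 1 and 53079 in replicate 2. Every peak carries a cleavage density, a signal that the authors scaled to read depth, and the step between its possible values was 1.65 times as large in replicate 1. Densities were therefore also ranked within each library, from 0 to 100, and both scales are given. Promoters of 9 of 10 cortical neuron markers had a shared peak (Slc17a7, the vesicular glutamate transporter, had none), as did all 4 interneuron markers and 4 of 6 glial markers. A shared peak was found at 1 of 4 microglial markers and at 1 of 5 autosomal markers of other organs, the apolipoprotein gene Apob.

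Divergent promoters drive 2 messenger RNAs from closely spaced start sites, often out of a shared CpG island without a TATA box. They are known for housekeeping genes, among them genes of DNA repair, mitochondrial translation and protein folding, and for clusters of replication-dependent histone genes. Factors such as the ETS family, NRF1, YY1 and the CCAAT-binding complex NF-Y are known regulators of promoters of this kind. Footprints, the short protected stretches inside a peak, mark bases cut less often than their surroundings, as happens under a bound protein.

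The DNA between the 2 start sites shows what such promoters look like. The following 6 sequences run from the base after the minus-strand gene's TSS to the base before the plus-strand gene's TSS, on the plus strand of GRCm38 (mm10), from RefSeq's copy of that build. They hold no annotated exon. Capitals mark bases inside a footprint of replicate 1 that overlaps a footprint of replicate 2. The first 3 are among the 10 strongest peaks, the next 2 are well-known gene pairs, and the histone pair was picked after its values were seen.
Aamp/Pnkd: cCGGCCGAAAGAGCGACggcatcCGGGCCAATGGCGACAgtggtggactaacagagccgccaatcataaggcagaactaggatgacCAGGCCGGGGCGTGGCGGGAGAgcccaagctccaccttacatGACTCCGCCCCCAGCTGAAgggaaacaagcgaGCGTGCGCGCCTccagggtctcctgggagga
Ruvbl2/Gys1: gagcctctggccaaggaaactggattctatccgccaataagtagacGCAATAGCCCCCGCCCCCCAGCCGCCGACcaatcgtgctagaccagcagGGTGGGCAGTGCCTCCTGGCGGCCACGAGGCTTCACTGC
Usp37/Cnot9: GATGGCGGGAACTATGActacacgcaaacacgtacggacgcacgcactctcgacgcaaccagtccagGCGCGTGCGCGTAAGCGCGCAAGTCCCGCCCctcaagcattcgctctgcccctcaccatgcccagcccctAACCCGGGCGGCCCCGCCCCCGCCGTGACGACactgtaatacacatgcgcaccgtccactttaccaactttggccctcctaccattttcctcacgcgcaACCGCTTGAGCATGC
Psmb1/Tbp: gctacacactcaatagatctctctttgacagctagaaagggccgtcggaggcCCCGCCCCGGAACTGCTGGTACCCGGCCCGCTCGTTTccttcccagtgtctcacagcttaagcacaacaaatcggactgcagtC
Mrps12/Sars2: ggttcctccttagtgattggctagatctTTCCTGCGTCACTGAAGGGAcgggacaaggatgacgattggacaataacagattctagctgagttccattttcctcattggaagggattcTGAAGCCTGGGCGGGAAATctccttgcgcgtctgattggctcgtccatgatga
Hist1h2bf/Hist1h2ad: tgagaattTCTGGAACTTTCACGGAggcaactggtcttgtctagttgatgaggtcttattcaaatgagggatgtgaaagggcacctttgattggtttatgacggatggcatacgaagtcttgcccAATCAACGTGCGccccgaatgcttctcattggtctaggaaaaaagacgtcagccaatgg

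Their positions are chr1:74284739-74284929, chr7:45434710-45434843, chr1:74505807-74506057, chr17:15499752-15499887, chr7:28741821-28741991 and chr13:23574197-23574380. Between Aamp and Pnkd, 85 of 191 bases lay in footprints found in both libraries, and these included 1 of the 2 CCAAT matches (read on either strand) and the only GGGCGG match. Between Ruvbl2, an ATPase of chromatin remodelling complexes, and Gys1, the muscle glycogen synthase, the footprints held 68 of 134 bases. The interval between Usp37, a deubiquitinase, and Cnot9, a subunit of the CCR4-NOT deadenylase, had 3 GGGCGG matches, and all 3 touched a footprint.

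The better-known pairs differed in their motifs. Between Psmb1, a subunit of the proteasome, and Tbp, the TATA-binding protein, 1 GGGCGG match at bases 54 to 59 lay in a footprint. Between Mrps12, a mitochondrial ribosomal protein, and Sars2, the mitochondrial seryl-tRNA synthetase, 4 CCAAT matches were present and none touched a shared footprint, while the 1 GGGCGG match did. The histone interval held 4 CCAAT matches, 1 of them in a footprint, and no GGGCGG match. A match is a run of letters and no evidence of binding.

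By contrast, the 109 bases between Abcg5 and Abcg8, the paired sterol transporters of liver and intestine, had no peak in either library. They lie at chr17:84683012-84683120 and hold no base in a footprint of both libraries. Their CpG observed-to-expected ratio was 0.531. In the sequences given above, the ratio ran from 0.604 between Ruvbl2 and Gys1 to 1.20 between Usp37 and Cnot9. Between Wrap53 and Trp53, a pair with a shared peak, it was 0.490. The ratio alone therefore did not set the Abcg5/Abcg8 interval apart from those of pairs with a shared peak. The Abcg5/Abcg8 pair was picked after its values were seen, and its sequence contains 1 TATAAA match.
Abcg5/Abcg8: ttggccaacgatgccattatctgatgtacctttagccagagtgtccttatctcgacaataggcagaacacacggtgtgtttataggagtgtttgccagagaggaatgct

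Divergent promoters held stronger peaks than single-direction promoters. Their median density was 4.58 in replicate 1 and 3.09 in replicate 2, against 2.29 and 1.63 at single-direction promoters and 1.497 and 1.16 over all shared peaks. The median percentile was 87.9 and 89.0 for divergent promoters, 74.1 and 75.3 for single-direction promoters and 57.4 and 60.8 for all shared peaks. The difference of 13.7 percentile points between the promoter classes compares with an SD of 0.104 between the 2 libraries. Both libraries therefore gave the same order of the classes, and the quartiles of the promoter classes overlapped.

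The top decile of a library's list held 45.3% ± 1.5 (SD, n = 2) of the divergent promoter peaks, or 728 peaks in replicate 1 and 763 in replicate 2. The background, the share of all shared peaks in the top decile, was 11.9 percent in replicate 1 and 13.2 percent in replicate 2, and single-direction promoters gave 23.2% ± 1.24. In the lower 50% of a list lay 9.11% ± 0.172 of divergent and 25.4% ± 0.460 of single-direction promoter peaks. Peaks were about equally wide: medians were 303 and 308 bp at divergent promoters and 307 and 320 bp at single-direction promoters. Hotspots, the broader regions of raised cutting around peaks, had a median highest −log10 FDR of 44.9 and 37.6 at divergent promoters and 22.3 and 18.1 at single-direction ones. No test was run between classes, because peaks of 1 library are not replicates of a condition.

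**Figure D1:**
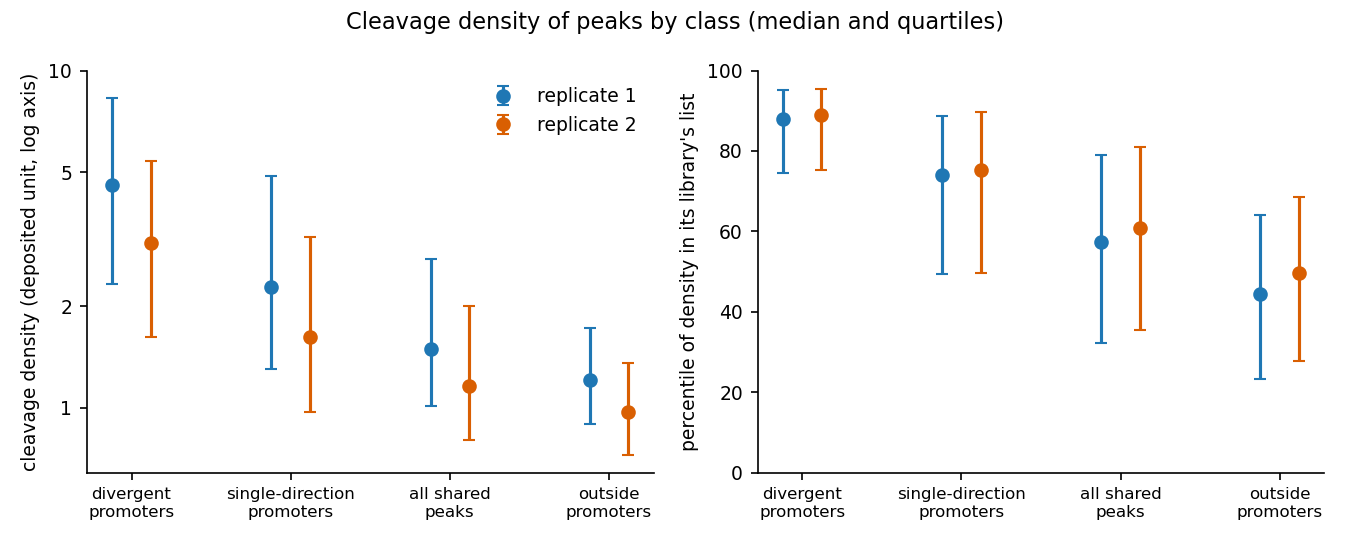
Median (points) and quartiles (bars) of cleavage density on a log axis (left) and of its percentile in its library's list (right), for shared peaks at divergent promoters, at single-direction promoters, over all, and outside promoters, in both replicates. Divergent promoters have the highest medians in both libraries, 4.58 and 3.09, and their quartiles overlap those of single-direction promoters but not those of peaks outside promoters.

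Part of the difference went with where peaks lay. A peak covered an annotated protein-coding TSS in 81.8% of divergent promoter peaks and in 62.9% of single-direction ones. Among the 1346 divergent peaks covering a TSS, median density was 5.56 and 3.55, against 3.29 and 2.17 for the 10643 such single-direction peaks. Beside the TSSs, the 300 divergent peaks had medians of 1.65 and 1.28, and the 6284 single-direction peaks 1.44 and 1.12. The median percentiles of peaks covering a TSS were 90.6 and 90.9 at divergent and 82.4 and 82.8 at single-direction promoters. Beside the TSSs they were 62.2 and 65.9 against 55.4 and 58.9. Divergent peaks were thus higher in both positions on either scale.

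A promoter can hold several peaks. When the strongest shared peak stood for each promoter, the median percentile was 92.5 and 92.9 for the 1095 gene pairs with a peak, and 85.1 and 85.4 for 9771 genes with single-direction promoters. The difference was then 7.43 points. It was 7.70 points among peaks with a base at an FDR of 0.0001 or lower.

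Within the divergent promoters, position set the peaks apart. The 806 peaks that covered both TSSs of their gene pair had median densities of 6.32 and 4.05. The 534 peaks that touched the interval between the TSSs without covering both had 3.96 and 2.78, and the 306 peaks to 1 side of both TSSs had 1.68 and 1.26. These last peaks had medians of 1 and 3 footprints, against 6 and 6 for the peaks that covered both start sites.

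Most annotated gene pairs were accessible, meaning that at least 1 shared peak lay within reach of both TSSs. The annotation holds 1201 such autosomal pairs, formed by 2350 genes. Of these pairs, 1095 were accessible (91.2 percent, 95% Wilson interval 89.4 to 92.6, counting error only). A peak was found at 1106 pairs in replicate 1 and at 1098 in replicate 2. Taking overlapping pairs as 1 promoter, 1062 of 1165 promoters were accessible.

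By gene, 93.8% of the 2350 genes had a shared promoter peak at 1 of their TSSs, against 54.1% of the other 18457 autosomal protein-coding genes and a background of 58.6 percent over all of them. Without olfactory and vomeronasal receptor genes, the share of the other genes was 58.7%. The start sites of a pair are at most 1000 bp apart, so 1 peak could count for both of its genes. Paired genes thus had an advantage in this count, and its size was not tested. The counts depend on the annotation: with only the 5′ ends of gene records as TSSs, 1008 peaks met the rule and 689 pairs were accessible.

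The start sites were close together. The distance between the TSSs, taken at its smallest for pairs with several start sites, had a median of 102 bp at accessible pairs (quartiles 54 and 196) and of 154 bp at the 106 pairs without a shared peak (quartiles 81 and 486). Distances were at most 200 bp at 888 of all 1201 pairs. A pair counted as accessible with a shared peak at any of its qualifying start sites, not only at the closest ones. The accessible share was 96.9% (249 of 257) at distances of 1 to 50 bp, stayed between 89.7% and 93.0% from 51 to 500 bp and was 73.5% (72 of 98) from 501 to 1000 bp. Near the limit of the rule, 8 of 14 pairs with distances of 901 to 1000 bp had a shared peak, and 9 of 14 with distances of 1001 to 1100 bp would have had one.

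At short distances, a single open region held both start sites. The strongest peak covered both TSSs at 77.9% of accessible pairs with 1 to 50 bp between them, at 73.5% with 101 to 200 bp, at 10.3% with 301 to 500 bp and at none of 72 with over 500 bp. Its summit lay between the TSSs at 614 pairs, inside or beyond the minus-strand gene's start at 259 and on the plus-strand side at 222. The summit was therefore placed to either side about equally often. The summit was between the TSSs at 30.5% of the closest pairs and at 75.6% of those 201 to 300 bp apart, where the interval offers more room.

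Strength did not fall with distance over most of the range. Median densities of the strongest peak were 5.47 and 3.38 at 1 to 50 bp, 7.6 and 4.74 at 101 to 200 bp, 8.05 and 5.66 at 301 to 500 bp and 5.89 and 4.13 at 501 to 1000 bp. The CpG ratio around the middle of the interval was lower at each wider distance, from 0.955 to 0.514. Of the 1095 accessible pairs, 468 had at least 2 shared peaks, with a median of 412 bp between the midpoints of the strongest and the next. The strongest peak was 1.85 and 1.83 times as dense as the next.

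**Figure D2:**
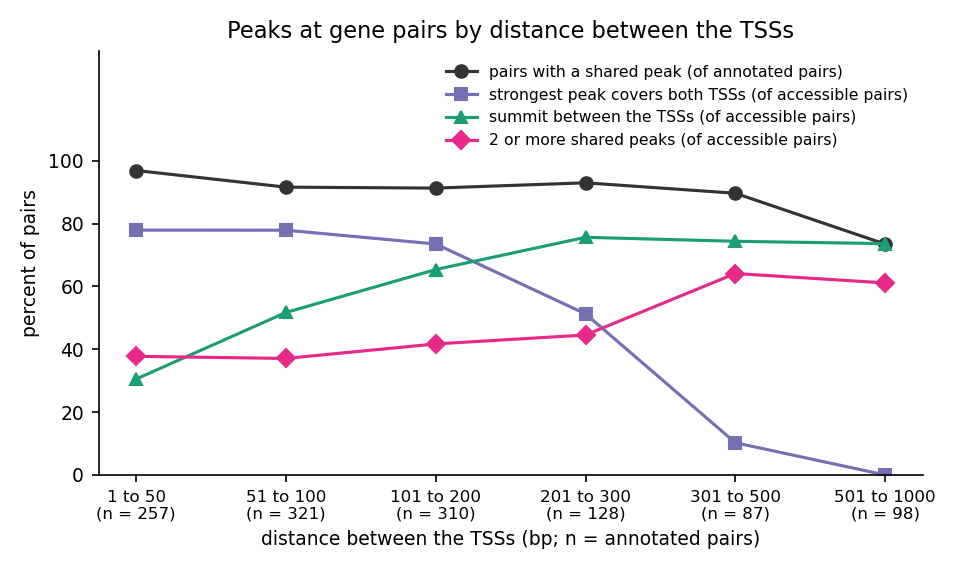
Percent of gene pairs (vertical axis) in 6 bins of the smallest distance between the TSSs in bp (horizontal axis). The peak of a pair can lie at other start sites of its genes. Black circles give annotated pairs with a shared peak, and the other symbols give shares of accessible pairs. The share with a peak over both TSSs goes from 77.9% to 0%, and the share of accessible pairs is lowest, 73.5%, in the widest bin.

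Averaged over the 1062 promoters and centred on the middle between the TSSs, peaks and footprints were near symmetrical. A peak covered the central bins at 85.1% to 85.3% of promoters in replicate 1, and at 11.9% to 12.7% at 590 bp to either side. Footprints covered 29.7% of promoters just left of the centre in replicate 1 and 31.7% in replicate 2. They were densest between the start sites: 24.4% and 27.0% of the bases there lay in a footprint, against 18.6% and 20.8% in the 100 bp downstream of a TSS and 5.37% and 6.36% from 101 to 300 bp downstream. Peak cover was nearly level near the centre, at 84.0% and 83.5% at 70 bp to either side in replicate 1, where footprints covered 23.6% and 22.1%. Farther out both fell.

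**Figure D3:**
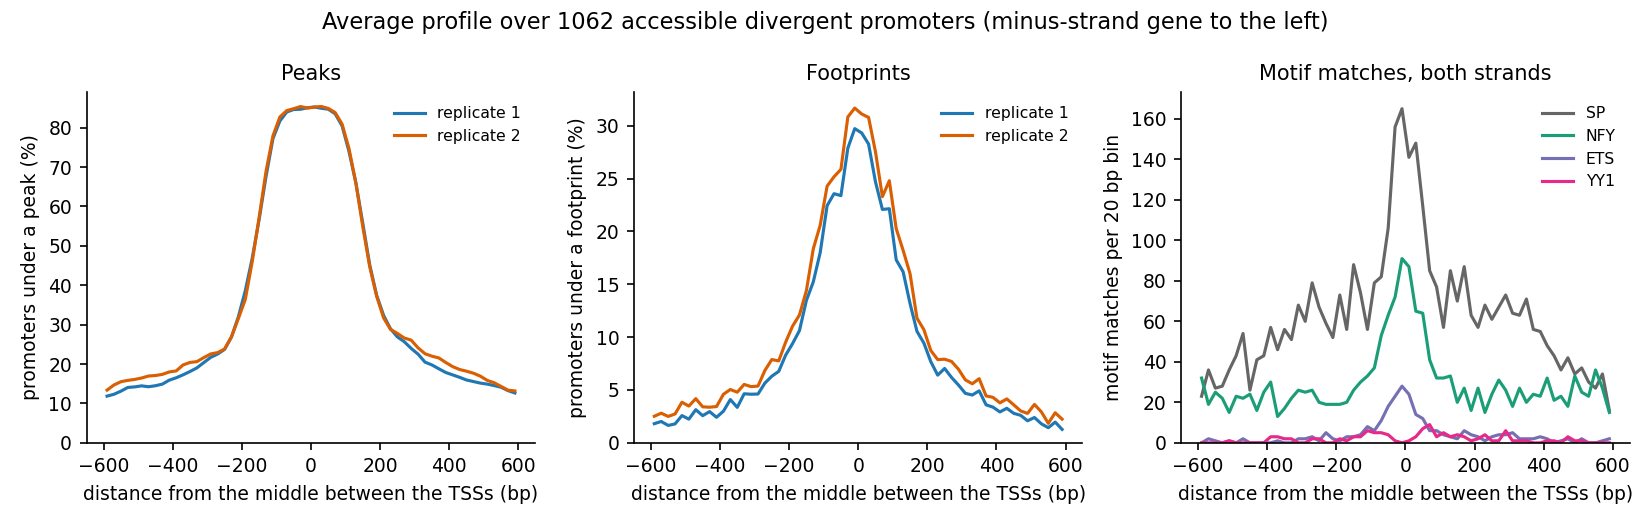
Profiles over 1062 accessible promoters against distance in bp from the middle between the TSSs: percent under a peak (left), percent under a footprint (middle) and matches of 4 motifs per 20 bp bin (right). Blue and orange lines are replicates 1 and 2, which nearly coincide for peaks. The profiles of peaks, footprints and SP, NFY and ETS matches are highest near the centre, and that of YY1 is not.

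Footprints were frequent in divergent promoter peaks. The median was 5 footprints per peak in both libraries, against 4 at single-direction promoters and 3 over all shared peaks. Per 100 bp of peak, footprints numbered 1.53 and 1.59 at divergent and 1.22 and 1.30 at single-direction promoters. At least 1 footprint was present in 88.5% of divergent peaks in replicate 1 and 92.5% in replicate 2, and single-direction peaks gave 86.1% and 92.5%.

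Peak strength moved with these counts. In the top decile of a library's list, both classes had a median of 6 footprints in either library. Between percentiles 50 and 75, the medians were 2 and 3 at divergent promoters and 3 and 4 at single-direction ones. Mean counts in the top decile were 6.35 and 6.53 at divergent and 6.22 and 6.33 at single-direction promoters. Between percentiles 75 and 90 they were 4.50 and 4.88 against 4.86 and 5.18. Between percentiles 50 and 75 the means were 2.08 and 3.16 against 3.08 and 3.78. In the lower 50% of a list they were 0.921 and 1.52 against 1.68 and 2.54. Within bands of equal strength, divergent promoters thus had lower means in every band below the top decile. Only in the top decile were their means slightly higher.

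The accessible pairs with the most footprints in both libraries were Aldh6a1/Lin52, Cdca2/Kctd9, Nfya/Oard1, Setd3/Ccnk and A730061H03Rik/Dcaf11, with 16, 14, 14, 12 and 14 footprints in replicate 1 and 12, 12, 11, 10 and 9 in replicate 2. Nfya encodes a subunit of the CCAAT-binding complex NF-Y, and Lin52 a subunit of the DREAM complex of cell cycle genes. Tpcn1/Iqcd, with 11 and 12 footprints, had as many found in both libraries, 11, as the last 3 of these, which ranked ahead of it by peak percentile. The peak at Aldh6a1/Lin52 was 639 bp wide, against a median of 303 bp. The peaks of the first 5 pairs were all above percentile 96 in both libraries.

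Divergent promoter peaks were rich in CpG. In the 150 bp around the peak midpoint, the median CpG observed-to-expected ratio was 0.872 in replicate 1 and 0.860 in replicate 2. Single-direction promoters had 0.798 and 0.784, and all shared peaks 0.505 and 0.496. GC content ran the other way, with medians of 64.7% and 64.0% at divergent and 66.0% and 65.3% at single-direction promoters. A ratio over 0.6 was found in 85.9% ± 1.16 of divergent and 73.8% ± 1.09 of single-direction windows (SD, n = 2).

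Motifs were counted as exact matches on both strands in the same 150 bp windows. The ETS string was CCGGAAGT. The string for YY1 was AAGATGGCG. NFY stands for CCAAT, and SP for GGGCGG. CRE stands for TGACGTCA, the E-box for CACGTG, the TATA box for TATAAA and NEUROD for CAGATGG. The longer or ambiguous consensus strings of NRF1, ZNF143, RFX, CTCF, MEF2 and AP-1 are given by name only. Matches of different motifs could overlap.

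The ETS string stood in 8.51% and 8.08% of divergent windows, against 3.98% and 4.04% of single-direction windows and 2.17% and 2.19% of all shared peaks. NRF1 matches were found in 2.37% and 2.19% of divergent windows and 1.25% and 1.26% of single-direction ones. For YY1 the shares were 2.43% and 2.37% against 1.45% and 1.36%. The Wilson intervals of the 2 classes did not overlap for these 3 motifs in either library. They rest on counts of 36 to 140 divergent peaks and cover counting error only.

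CCAAT was found in 28.9% and 29.0% of divergent and 22.4% and 22.7% of single-direction windows, and the SP string in 50% and 51.2% against 48.3% and 48.5%. TATAAA was rare in both classes, at 1.58% and 1.52% against 1.51% and 1.71%. The strings of NEUROD, the neurogenic bHLH factors, and AP-1 were found in 1.46% and 1.46%, and 1.22% and 1.40%, of divergent windows, and in 6.37% and 6.36%, and 3.87% and 4.15%, of all shared peaks. Single-direction promoters were also low, at 2.20% and 2.37% for NEUROD and 1.97% and 2.09% for AP-1. MEF2 matched no divergent window in either library, which allows a share of up to 0.233% by the Wilson interval. Its shares elsewhere lay within that range, at 0.0931% and 0.0955% of all shared peaks and 0.0709% and 0.0768% of single-direction windows. The absence therefore does not set divergent promoters apart.

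**Figure D4:**
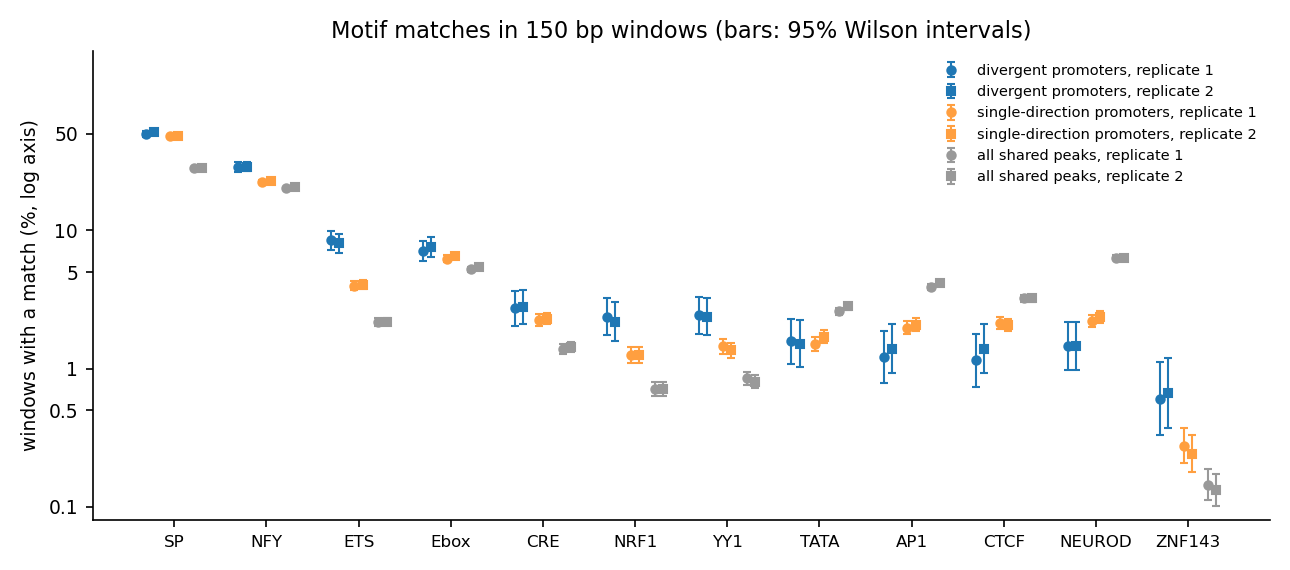
Percent of 150 bp windows with a match (log axis) for 12 motifs, in divergent promoters (blue), single-direction promoters (orange) and all shared peaks (grey). Circles and squares are replicates 1 and 2, and bars are 95% Wilson intervals. ETS is at 8.51% and 8.08% in divergent windows, and NEUROD is lower there than in all shared peaks.

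The motifs differed in how they went with peak strength. Divergent peaks with a CCAAT match had median densities of 7.65 and 4.998, and those without 3.90 and 2.52. With and without an ETS match the medians were 4.59 and 4.58 in replicate 1 and 3.29 and 3.07 in replicate 2. In the top decile, CCAAT was equally common in divergent and single-direction windows, at 44.1% and 44.0% in replicate 1 and 42.3% and 44.1% in replicate 2. Between percentiles 75 and 90, ETS matches were more common at divergent promoters, at 12.8% and 10.4% against 7.36% and 6.41%. Between percentiles 50 and 75 the ETS shares were 6.79% and 5.86% against 1.41% and 1.96%. In the lower 50% of a list they were 1.32% and 2.70% against 0.573% and 0.635%, with only 2 and 4 divergent peaks holding a match. In the top decile the ETS shares were closer, at 7.69% and 8.39% against 6.82% and 7.11%.

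Position relative to the start sites also differed by motif. CCAAT matches numbered 3.83 per kb between the TSSs, 1.11 per kb in the 100 bp downstream of a TSS and 0.892 per kb from 101 to 300 bp downstream. The YY1 string, by contrast, was found 7 times between the TSSs (0.0411 per kb) and 62 times in the 100 bp downstream (0.289 per kb). ETS matches were about as dense between the TSSs as just downstream, at 0.535 and 0.434 per kb.

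Footprints found in both libraries covered 18.6% of the bases of divergent promoter peaks. They touched 44 of 47 NRF1 matches, 58 of 67 CRE matches and 1340 of 2367 SP matches. They touched 79 of 217 ETS matches and 319 of 1092 CCAAT matches. At single-direction promoters such footprints covered 12.9% of the bases. There they touched 94.3% of NRF1 matches, against 93.6% at divergent promoters, and 36.7% of ETS matches against 36.4%. For SP the shares were 42.9% at single-direction and 56.6% at divergent promoters, for CCAAT 21.9% and 29.2%, and for CRE 82.0% and 86.6%. Any bias of DNase I for particular sequences was not tested.

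Gene lists differed in how many of their genes were in an accessible pair. Of all 20807 autosomal protein-coding genes, 10.3 percent were in an accessible pair. In 10 of 14 gene lists the share was above that value, and 4 lists were below it. The same split held for genes in any annotated pair, a share that uses no peaks and was 11.3% over all genes. It was 40.3% for histone genes, 39.8% for DNA repair, 37.2% for mitochondrial ribosomal proteins, 29.5% for RNA splicing and 3.27% for neuronal genes. The order of the lists thus largely followed how often their genes are annotated in pairs. The lists were chosen with earlier results of these data known, between 77.6% and 100% of the genes in the 10 lists had a shared promoter peak in any arrangement, and no enrichment test was run.

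DNA repair genes had the highest share, 35 of 88 (39.8%). All 37 annotated pairs with a repair gene were accessible, against a background of 91.2% over all annotated pairs. Their strongest peaks had median percentiles of 95.4 and 94.6. Mcm4/Prkdc joins a subunit of the replicative helicase to the DNA-dependent protein kinase, and its peak had densities of 16.5 and 10.4. Brca1/Nbr1 had 20.4 and 11.3, with its strongest peak downstream of the start of Nbr1 rather than between the start sites.

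Genes of mitochondria and their protein synthesis followed. Mitochondrial ribosomal proteins were in an accessible pair for 29 of 78 genes (37.2%). All 28 of their pairs were accessible, at a median distance of 61 bp, against 91.2% of all annotated pairs. Mrps18b/Ppp1r10 led them with densities of 17.1 and 11.3, followed by Mrpl18/Tcp1, which pairs a mitochondrial ribosomal protein with a subunit of the cytosolic chaperonin, with 14.7 and 9.86. Among oxidative phosphorylation genes the share was 31 of 93 (33.3%), with Uqcrq/Gdf9 at 15.0 and 13.2 and Vmac/Ndufa11 at 12.3 and 9.66. Aminoacyl-tRNA synthetases had 10 of 37, led by Ears2/Ubfd1 at 10.0 and 6.57 and S100pbp/Yars at 8.68 and 6.81.

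Protein folding and turnover genes were also frequent. Chaperones had 26 of 85 (30.6%), led by Hsp90b1/Ttc41, the endoplasmic reticulum member of the HSP90 family, at 18.9 and 12.8, and by Tecr/Dnajb1 at 15.2 and 9.89. Proteasome subunits had 10 of 49 (20.4%), led by Mrpl32/Psma2 at 13.1 and 9.24 and Psmb1/Tbp at 8.55 and 5.21. Cytosolic ribosomal proteins had 14 of 76 (18.4%), led by Med22/Rpl7a at 14.8 and 9.33 and Rpl15/Nkiras1 at 13.1 and 8.39. The proteasome and ribosomal protein lists each held 1 pair without a peak in either library, Htr2b/Psmd1 and Rnf151/Rps2. Psmd1 and Rps2 each still had a shared promoter peak that was not within reach of both start sites.

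RNA splicing genes had 17 of 61 (27.9%), among them Snrpa/BC024978 at 11.9 and 12.6. Cell cycle and replication genes had 19 of 89 (21.3%). Among them Orc4/Mbd5, which joins an origin recognition subunit to a protein of the methyl-CpG-binding domain family, had 15.4 and 12.8. Cdk5/Slc4a2 joins the neuronal cyclin-dependent kinase to an anion exchanger and had 16.1 and 9.79. All of these named peaks were above percentile 97 in both libraries.

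Replication-dependent histone genes were arranged differently. They had 21 of 67 genes (31.3%) in accessible pairs, and in 13 of their 14 pairs both partners were on the list, most of them an H2A gene beside an H2B gene. The median distance at accessible pairs was 251 bp, against 102 bp over all pairs, and the median percentiles of their strongest peaks were lower, at 79.5 and 82.9. Hist1h2bf/Hist1h2ad had the strongest peak, with densities of 6.43 and 4.74. Next came Hist1h2an/Hist1h2bp at 4.05 and 3.09. Hist1h2bq/Hist1h2ao, Hist1h2ap/Hist1h2br and Hist1h2ba/Hist1h2aa had no peak. Histone genes are near-identical copies, so reads could be split or lost between them, and the labels do not say how the authors treated such reads.

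The lists below the background were those of larger or tissue-specific families. Zinc finger protein genes had 25 of 385 (6.49%), led by Zfp654/Cggbp1 at 19.2 and 15.8 and Zfp277/Dock4 at 16.8 and 12.1. Solute carriers had 25 of 372 (6.72%), with Slc39a7/Rxrb, a zinc transporter beside a retinoid X receptor, at 13.5 and 6.82. Olfactory receptors had 0 of 1128 genes, and 0 of them in an annotated pair.

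Of 214 neuronal channel, receptor and synaptic genes, 7 (3.27%) were in an annotated pair, and 6 (2.80%) were in an accessible one. A shared promoter peak in any arrangement was found at 71.5% of the 214 genes. Tmem126b/Dlg2, with a postsynaptic scaffold gene, had densities of 14.1 and 9.89, and Nlgn2/Tmem256, with a neuroligin of inhibitory synapses, 10.8 and 7.5. Grik5/Zfp574 had 3.02 and 2.42 and Lrtm2/Cacna2d4 1.497 and 1.23. Gabra4/Gabrb1, the only pair with both genes on the list, had 1.12 and 0.642, at percentiles 39.3 and 19.3. Timp4/Syn2, with a synapsin gene, had a peak in replicate 2 alone.

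**Figure D5:**
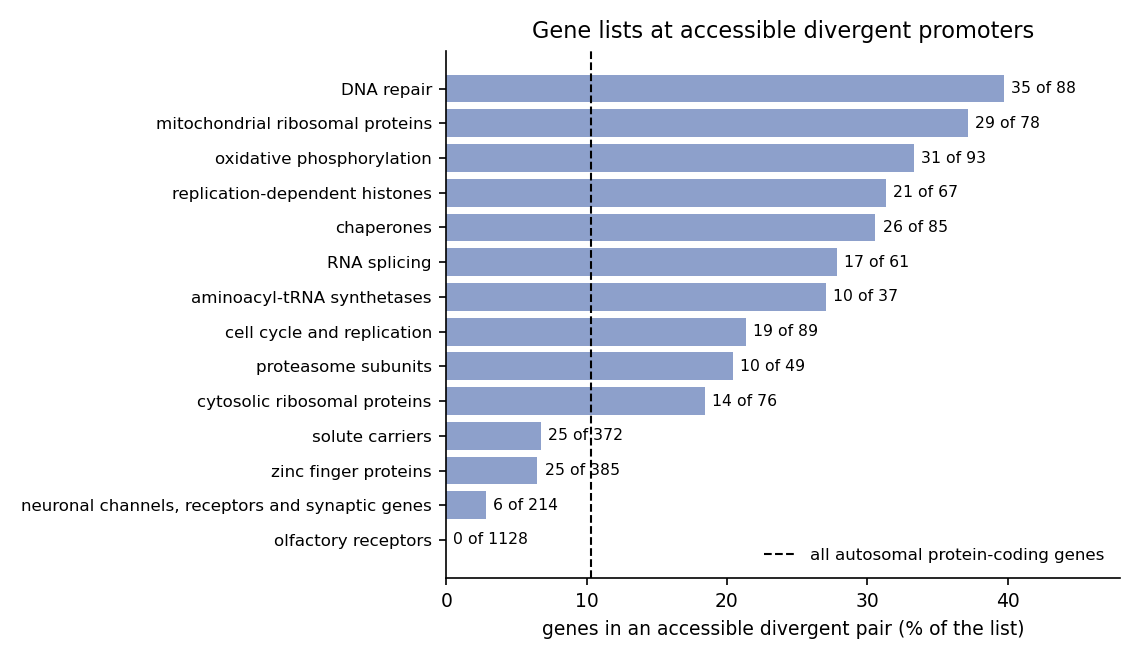
Percent of each list's measured genes that lie in an accessible divergent pair (bars, with counts), for 14 lists. The dashed line is the share over all autosomal protein-coding genes, 10.3%. The share in any annotated pair, accessible or not, is 11.3% over all these genes and 39.8% for DNA repair. DNA repair is highest at 35 of 88, and olfactory receptors are at 0 of 1128.

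Some pairs joined 2 of the lists. There were 18 such pairs, and 17 were accessible, close to the background of 91.2% over all annotated pairs. Examples are Ndufs6/Mrpl36 (complex I and the mitochondrial ribosome, densities 5.28 and 4.08), Rps28/Ndufa7 (the cytosolic ribosome and complex I, 9.49 and 5.80) and Xpc/Lsm3 (nucleotide excision repair and an Sm-like splicing protein, 9.03 and 6.14). The exception was Zfp512b/Prpf6, with 948 bp between the TSSs. Pairs with both genes on the same list numbered 22, of which 18 were accessible.

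Among 18 textbook divergent pairs, 17 met the rule and all 17 were accessible, against a background of 91.2% over all annotated pairs. The other, Ung/Alkbh2, has its gene starts 2168 bp apart. Hspd1/Hspe1, the mitochondrial chaperonin and its co-chaperonin, had densities of 11.5 and 7.64. Atm/Npat, the DNA damage kinase and the histone gene activator, had 16.7 and 9.33. Gart/Son had 10.3 and 5.78 and Ppat/Paics 10.5 and 6.61, both with purine synthesis enzymes. All 4 were above percentile 95 in both libraries.

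Mrps12/Sars2 had 7.85 and 5.39. Wrap53/Trp53 had 8.17 and 5.79, and its strongest peak lay outside the interval between the TSSs. Psmb9/Tap1, of antigen processing, had 5.06 and 3.31. Weaker peaks were found at Emc8/Cox4i1 (3.81 and 2.69), Fen1/Tmem258 (3.87 and 2.50) and Surf1/Surf2 (3.16 and 2.18). The lowest of the 17 was Col4a1/Col4a2, the collagen genes of basement membranes, with 2.14 and 1.55 at percentiles 72.1 and 73.6.

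The strongest divergent promoter peak of all was at Hjurp/Trpm8 (chr1:88277502-88277777), where the centromeric histone chaperone gene lies 28 bp from the cold-sensing channel gene. Its densities were 32.0 and 22.4, and it ranked highest among these peaks in both libraries. By mean percentile Aamp/Pnkd followed with 22.1 and 17.1 (chr1:74284703-74285039), then Ruvbl2/Gys1 with 21.2 and 17.4 (chr7:45434568-45434862) and Rita1/Ddx54, which includes an RNA helicase gene, with 21.9 and 16.6 (chr5:120612833-120613145). The next 6 included Tom1l2/Drc3, Zfp654/Cggbp1, Alg12/Creld2, Acin1/1700123O20Rik and Usp37/Cnot9. In replicate 1 the 6 densities lay between 18.7 and 22.8, in replicate 2 between 12.9 and 18.3, and all 10 peaks were above percentile 99 in both.

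The 5 weakest peaks were at Eri2/Rexo5, Tmem200a/Gm9767, Gm9922/Lmo7, Lcmt2/Adal and Irak3/Tmbim4. Eri2/Rexo5 was lowest, with 0.578 and 0.357 (chr7:119794413-119794498), in a peak of 86 bp without a footprint. The other 4 had densities of 0.588 to 0.770 in replicate 1, and of 0.415 to 0.570 in replicate 2. The peak at Lcmt2/Adal lay to 1 side of both start sites, in a hotspot with a highest −log10 FDR of 41.4.

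The libraries ranked divergent promoter peaks much alike. Of the replicate 1 peaks that met the rule, 92.4% were found in replicate 2, and of those in replicate 2, 89.1% were found in replicate 1. Single-direction promoter peaks gave 87.3% and 86.8%. Percentiles differed by over 20 points at 53 divergent peaks (3.22%), against 7.24% of single-direction peaks and a background of 12.7 percent over all shared peaks. Divergent peaks were stronger, and the classes were not matched for strength in these comparisons. Across the 1646 peaks Spearman's rho of the densities was 0.973, a description over peaks that share 2 libraries.

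The largest rank differences were at weak or split peaks. Cmc2/Cenpn, Hsf2bp/Rrp1b, Zfp942/Zfp943, Zdhhc6/Vti1a and 1110059E24Rik/Abhd17b ranked 27.5 to 32.6 points higher in replicate 1. In the other direction stood Fhl4/Tmem263, Vps26b/Ncapd3 and Lsr/Fam187b, 33.0 to 36.6 points higher in replicate 2, and both peaks of Hist1h2ak/Hist1h2bn, by 42.5 and 47.1. At that histone pair, 2 adjoining replicate 1 peaks overlapped the same replicate 2 peak, whose density was 1.63 against 1.03 and 0.963. None of these peaks was above percentile 76 in either library.

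The 106 annotated pairs without a shared peak formed the remainder. A peak was present in replicate 1 alone at 11 of them, in replicate 2 alone at 3 and in neither at 92. In the looser deposited lists, 80 had no peak in either library. The CpG ratio around the middle of the interval had a median of 0.325 at these pairs and 0.882 at accessible ones, and a ratio over 0.6 was found at 31.1% and 84.8%.

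Gm3448/Gm3435, 7 bp apart, had the smallest distance among pairs with no peak in either library. Among pairs without a symbol that starts with Gm or ends with Rik, the closest were Cxcl16/Zmynd15 (25 bp), Best1/Rab3il1 (36 bp), Wdr83/Wdr83os (37 bp), Tradd/Fbxl8 (39 bp) and Spaca4/Fam83e (46 bp). Cxcl16 encodes a chemokine and Best1 a chloride channel of the retinal pigment epithelium. Of these 5, Wdr83/Wdr83os had a peak in the looser list of replicate 1, and the other 4 had none in the looser lists. Col4a4/Col4a3, the second set of basement membrane collagen genes, had no peak either, at a distance of 72 bp, in contrast to Col4a1/Col4a2.

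A pair without a peak does not mean that its genes lack an open promoter. At 56 of the 106 pairs neither gene had a shared peak within 1000 bp of any of its TSSs. At 36 pairs 1 gene had such a peak, out of reach of the other gene's start, and at 14 pairs both genes did, as at Best1/Rab3il1.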

How the data were processed

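DNase-seq peaks, hotspots and footprints of 2 libraries were analysed from the interval lists that the authors deposited for each library, on the mm10 assembly per the labels. The labels name no caller, version or threshold. The deposited peak density is a signal scaled to read depth by the authors; each was a multiple of a fixed step (within 0.05 of a step), so relative but not absolute depth is known. Hotspots carry the authors' −log10 FDR. The deposited footprint lists carry 0.01 as p-value in every line, a threshold, and the deposited tracks give an FDR per base. Summit positions and the other deposited footprint lists of replicate 2 hold positions with no other score.

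The peak lists made from reads were used, in their shorter form. Overlaps, TSS distances, motif matches and ranks used pandas 2.3.3, numpy 2.4.6 and scipy 1.17.1 under Python 3.11.15; matplotlib 3.10.9 drew the plots. The code was tested on simulated data. TSSs came from every transcript of protein-coding genes in GENCODE vM21. RefSeq's GRCm38.p6 supplied sequence, and 628 of 628 checked promoter sequences matched it. A peak was paired with the densest overlapping peak of the other library. Each peak was placed at its nearest TSS pair. Of 38 listed tRNA synthetases, 37 matched by symbol.

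The members and gene lists were chosen with earlier results of these data known. Named pairs were textbook pairs, the 10 strongest and 5 weakest peaks, the 5 largest rank differences each way, the 2 strongest pairs per list, the 5 with most footprints and the 5 closest pairs without a peak and without Gm or Rik symbols; others were named after their values were seen. A few pairs that this rule names are not reported here. Reads of an F1 cross mapped to the C57BL/6J reference can favour that allele, which was not examined here.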

Additional observations from a re-analysis of the deposited data

How the results depend on the processing

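No paired analysis was possible because there was 1 group. The number of peaks was within 1.5 times the reported 1646 in 10 of 11 alternatives, and was 1008 with the 5′ ends of gene records as TSSs, where accessible pairs numbered 689 in place of 1095. The share of accessible pairs, 91.2%, was 88.3% with a stricter peak threshold (FDR 0.0001), 85.8% with midpoints within 500 bp of the TSSs, 92.9% with TSSs at most 300 bp apart and 93.9% with gene record ends. The percentile difference of 13.7 points kept its direction in all 13 alternatives. It was 7.70 with the stricter threshold, 15.4 with the looser lists, 11.7 with 50% reciprocal overlap, 13.1 with equal list sizes, 12.4 within 500 bp, 13.3 at 300 bp, 11.1 with gene record ends, 12.9 with protein_coding transcripts only, 11.7 with the alignment-derived lists, 14.4 against promoters with no other gene within 1000 bp, 7.43 with the strongest peak of each promoter, and 17.3 to 18.1 with 1 library left out. The median CpG ratio, 0.866 as the mean of both libraries, was 0.879 with the stricter threshold, 0.892 within 500 bp, 0.881 at 300 bp, 0.837 over whole peaks and 0.846 to 0.870 with 1 library left out. Footprints per peak, 5, were 4 with the smaller other list of replicate 2, 1.56 when counted per 100 bp, and 4 to 5 with 1 library left out. In all 11 alternatives 10 of 14 gene lists were above the share of all genes. Changes to the peaks could hardly alter this count, so it is no test of accessibility. In the 10 lists 19.7% to 40.3% of genes were in an annotated pair, against 11.3% of all genes. The alignment-derived lists and the strongest peak per promoter were chosen after seeing the data. The planned read-derived lists are those reported and gave no separate value. The causes of these shifts were not tested. With 2 libraries, the spread between animals is not known, and without absolute depth no detection limit can be given for pairs without a peak.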

Other observations

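Some gene pairs without a shared peak had CpG-rich DNA between their start sites. A CpG observed-to-expected ratio over 0.6 in the 150 bp around the middle was found at 33 of the 106 pairs, and 20 of these had no peak in the looser lists either. Among them were Shox2/Rsrc1, with a homeobox gene of limb and heart development (ratio 1.01), Tcte3/Ermard (1.15), Glo1/Dnah8 (0.852) and the thyroid hormone synthesis pair Duox2/Duoxa2 (0.798). Glo1, the glyoxalase, Rsrc1 and Ermard each had a shared promoter peak out of reach of the partner's start. These pairs were picked after their values were seen.

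At 14 pairs a peak was called in 1 library only, and 5 of these pairs had a peak in the looser lists of both. Rnaseh2a/Prdx2, with a ribonuclease subunit and a peroxiredoxin, was such a pair at a distance of 6 bp, with a peak in replicate 1 and none in either list of replicate 2. Sirt1/Dnajc12, with a deacetylase gene, had its peak in replicate 1 at a distance of 739 bp.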
